A study of Homo sapiens with 18 samples.

Results

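Potassium channel genes are described here across ARID2 knockout (KO) and control lines of 2 human metastatic melanoma cell lines. The genes were taken by symbol, as every row of the count tables named KCN, then letters, then a number, which gave 93 of 56629 rows. The set was drawn up because KCND1 rose in the SKmel147 KO lines and because KCNG1 and KCNE4 fell in the 501mel KO lines. The comparisons of KO lines with controls are therefore given for the set as a description, and the comparisons that the choice did not use carry the tests. The study profiled polyA RNA from SKmel147, which carries NRASQ61R, and from 501mel, which carries BRAFV600E, after disruption of ARID2, a subunit of the PBAF chromatin remodelling complex. Par is the parental line of SKmel147 without a construct; beside it stand a line labelled NT and 3 ARID2 KO lines named KO1.4, KO1.5 and KO3.20, where NT and the KO lines carry Lenti-Cas9 and a PLKO sgRNA by stable infection. 501mel has its own Par without a construct, a line labelled NTC and 2 ARID2 KO lines named KO1.8 and KO5.2, where NTC and the KO lines carry Lenti-CRISPR V2 Cas9 with an sgRNA. Each of the 9 lines has 2 libraries (R1 and R2), 18 in all. The labels do not say whether a KO line is 1 clone or whether its libraries come from separate cultures, so p-values over libraries measure a spread that may be technical.

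Potassium channels let potassium leave or enter the cell along its gradient and set the membrane potential, cell volume and calcium entry, including in melanocytes and melanoma cells. Pore subunits differ in what opens them, such as voltage (KCNA, KCNC, KCND, KCNH and KCNQ genes) or calcium and sodium (KCNMA, KCNN, KCNT and KCNU genes). The inward rectifiers (KCNJ) and the tandem-pore leak channels (KCNK) hold the resting potential. The silent modifiers (KCNF, KCNG, KCNS and KCNV) form no channel alone and change the behaviour of other voltage-gated pores, and the auxiliary subunits (KCNAB, KCNE, KCNIP and KCNMB) tune pores of other families.

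ARID2, the targeted gene, ranged from 63.5 to 74.3 CPM (counts scaled to a common library size) in SKmel147 controls, and KO libraries held 40.4 to 58.6 CPM. In 501mel the range was 39.6 to 42.5 CPM in controls and 19.0 to 31.6 CPM in KO libraries. No KO library reached a control, and an edit of the gene need not remove its RNA. SKmel147 libraries held 21266522 to 35670140 counts, and those of 501mel 16749707 to 20606855. Between R1 and R2 of a line, chi-square per degree of freedom was 13.6 to 35.2 in SKmel147 and 2.38 to 4.51 in 501mel. Libraries of a line thus varied more beyond counting error in SKmel147, so counts of called genes are not comparable between the cell lines. The channel genes took 0.0331% to 0.0440% of the counts of a library in SKmel147, and 0.0494% to 0.0616% of them in 501mel. The summed level of the 10 melanocyte lineage markers was 8969 to 9502 CPM in 501mel controls and 397 to 549 CPM in SKmel147 controls, where PMEL, TYR and DCT were each under 1 CPM on average and SOX10 stood at 201 CPM. In KO libraries the sum was 6855 to 9529 CPM in 501mel and 425 to 526 CPM in SKmel147. Of the 10 markers tested in 501mel, 3 were called higher in KO lines and 3 lower, among them MCAM (log2 fold change 2.37 ± 0.06) and TYRP1 (-0.99 ± 0.04, with -1.92 in KO5.2 and -0.07, not called, in KO1.8). None of the 6 tested in SKmel147 was called, and the part of these markers in the results was not tested. Of 3 undifferentiated melanoma markers, AXL was called lower in SKmel147 KO lines (-0.37 ± 0.06), and NGFR and EGFR were not called. NGFR was called lower in NT than in Par (-1.65 ± 0.35). Their sum reached at most 0.573 CPM in 501mel libraries, and their part was not tested. All 3 keratinocyte markers were at 0 in 501mel. In SKmel147 their sum, 1 of 3 markers being tested, was 0.570 to 0.991 CPM in controls and 1.61 to 2.6 CPM in KO libraries, with KRT14 as the main contributor, and its part in the results was not tested. The sum of 3 neuron markers was 0 to 0.0574 CPM in 501mel controls and 0.390 to 0.811 CPM in KO libraries. Over all 501mel libraries SNAP25 gave 47 counts and SYT1 and RBFOX3 gave 1 each. In SKmel147 the sum was 22.6 to 52.9 CPM in controls and 20.7 to 25.7 CPM in KO libraries, with SYT1 called lower (log2 fold change -0.79 ± 0.10) and SNAP25 called higher (1.45 ± 0.18), and the part of these markers was likewise not tested.

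Of the 93 genes, 8 had no count in any library and 48 did not pass the filter on low counts in either cell line. The highest level of any of those 48 in a library was 0.633 CPM, for KCNJ13. The filter left 33 genes in SKmel147 and 31 in 501mel, of which 19 were tested in both. By role, 12 of 30 voltage-gated pore genes were tested in at least 1 cell line, as were 10 of 15 auxiliary subunits, 6 of 10 silent modifiers, 5 of 15 inward rectifiers, 5 of 15 tandem-pore leak channels and 7 of 8 ion-activated channels. The filter asked for at least 2 libraries at 0.341 CPM in SKmel147 or 0.519 CPM in 501mel, on unscaled library totals. In SKmel147, 1 gene passed through its controls, with fewer than 2 KO libraries at that level, and 2 passed through KO libraries with fewer than 2 controls at it; in 501mel 8 and 3 did. Such genes had to differ between groups, so counts over the tested genes are not counts over the set.

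**Figure D1:**
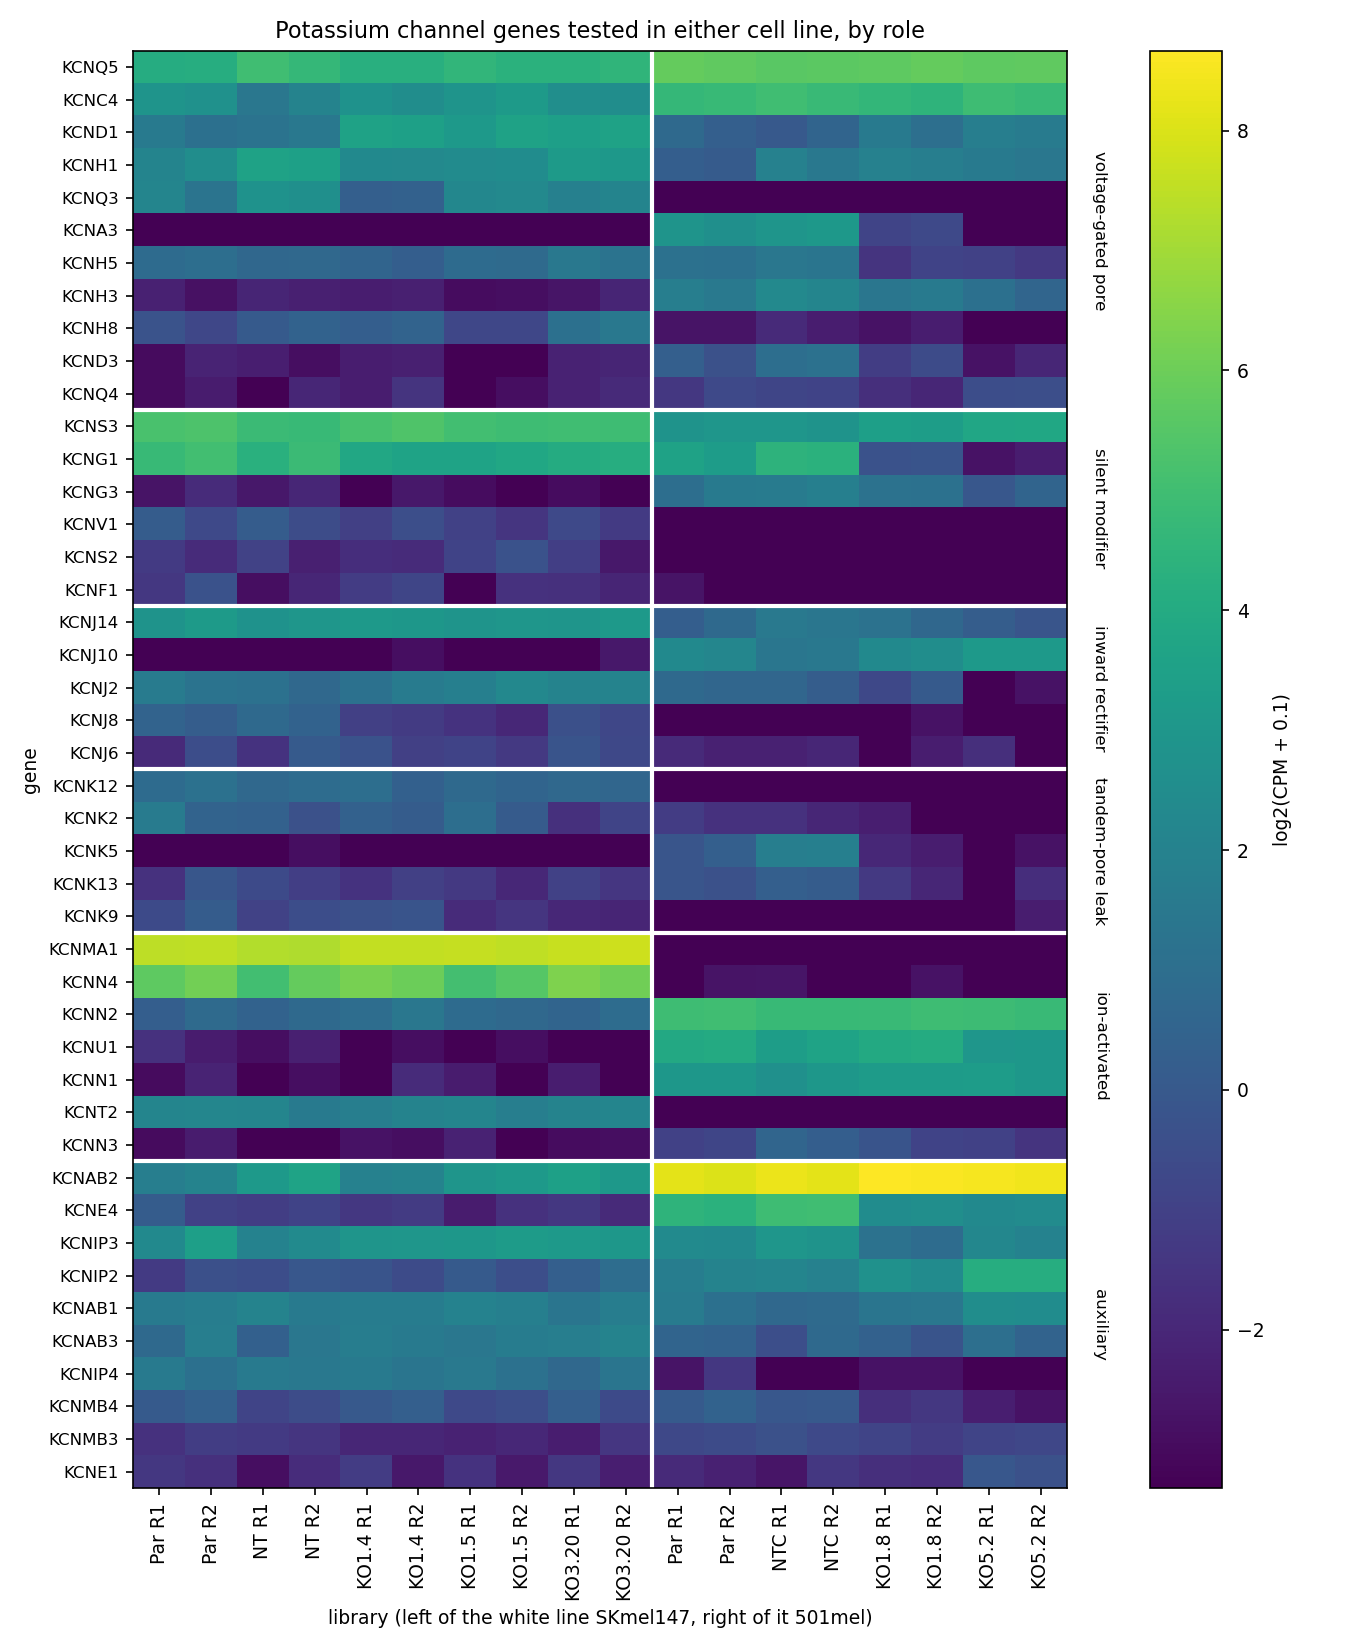
Level of 44 of the 45 potassium channel genes tested in at least 1 cell line (rows, grouped by role) in each of the 18 libraries (columns), as log2(CPM + 0.1). The bright rows differ between the cell lines: KCNMA1 and KCNN4 are bright only left of the white line (SKmel147), and KCNAB2 is brightest right of it (501mel).

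The promoter sequences of 4 members are shown because KCND1 was called higher in every KO line of both cell lines, while KCNK5 (tandem-pore leak channel), KCNJ2 (inward rectifier) and KCNH5 (voltage-gated pore) were called lower in both 501mel KO lines. Each run is the 250 bases upstream of the RefSeq start on GRCh38.p14, 5′ to 3′ on the gene's strand, with GC boxes (GGGCGG) in capitals. The windows lie at chrX:48971845-48972094 on the minus strand for KCND1, chr6:39229476-39229725 on the minus strand for KCNK5, chr17:70169282-70169531 on the plus strand for KCNJ2 and chr14:63045459-63045708 on the minus strand for KCNH5.
KCND1: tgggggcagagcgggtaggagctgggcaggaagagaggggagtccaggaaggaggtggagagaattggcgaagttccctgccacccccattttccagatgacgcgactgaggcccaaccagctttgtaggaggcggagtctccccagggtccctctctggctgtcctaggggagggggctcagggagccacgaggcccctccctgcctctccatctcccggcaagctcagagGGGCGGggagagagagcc
KCNK5: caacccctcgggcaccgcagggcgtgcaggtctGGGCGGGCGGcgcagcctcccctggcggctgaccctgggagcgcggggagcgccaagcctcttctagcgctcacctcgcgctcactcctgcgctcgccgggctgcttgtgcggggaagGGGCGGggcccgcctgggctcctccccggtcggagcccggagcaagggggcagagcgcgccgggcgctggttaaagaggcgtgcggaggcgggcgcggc
KCNJ2: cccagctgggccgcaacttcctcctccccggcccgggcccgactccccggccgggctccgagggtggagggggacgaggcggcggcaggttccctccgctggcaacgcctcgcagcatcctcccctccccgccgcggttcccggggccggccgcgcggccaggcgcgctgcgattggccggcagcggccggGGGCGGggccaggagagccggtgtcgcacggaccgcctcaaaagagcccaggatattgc
KCNH5: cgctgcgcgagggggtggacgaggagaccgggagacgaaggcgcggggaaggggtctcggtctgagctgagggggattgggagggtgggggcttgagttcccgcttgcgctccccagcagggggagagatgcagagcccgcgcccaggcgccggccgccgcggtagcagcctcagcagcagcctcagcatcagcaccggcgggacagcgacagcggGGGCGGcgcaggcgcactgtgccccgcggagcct

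Searched on both strands, the 4 windows held the GC box and none of the other motifs tried, which were TGANTCA (the AP-1 site), CATGTG (an E-box) and GGAATG (a TEAD site). KCNK5 held 3 GC boxes, 2 of them overlapping, and the other members held 1 each. RefSeq gave a start for 69 of the 93 channel genes, with 107 windows. The GC box was in 48.6% of those windows and in 42.6% of all 35116 windows of the same length. The AP-1 letters were in 8.41% of the channel windows and 6.57% of all windows. The CpG dinucleotide occurred 8 times in the KCND1 window and 31, 32 and 27 times in those of KCNK5, KCNJ2 and KCNH5, against a median of 11 over all windows. A match describes the letters and is not evidence of a bound site.

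In SKmel147, KCND1, the pore of a fast transient voltage-gated current, was the channel gene whose rise chose the set. Its level was 2.86 and 2.02 CPM in Par and 2.28 and 2.64 CPM in NT. It was 12.1 and 11 CPM in KO1.4, 8.99 and 11.8 CPM in KO1.5, and 10.9 and 12 CPM in KO3.20. Every KO library lay above every control, and the KO lines lay close to each other. The log2 fold change of KO lines against controls was 2.16 ± 0.15 (SE), and it was 2.22, 2.06 and 2.21 in KO1.4, KO1.5 and KO3.20.

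Across the tested genes, 8 of 33 channel genes were called in SKmel147 KO lines against controls (adjusted p under 0.05 in edgeR's quasi-likelihood test), 3 higher and 5 lower. The test called 17.7% of all genes, 8.07% higher and 9.6% lower. The median log2 fold change was 0.03 over the tested channel genes and -0.01 over all tested genes. With a correction for GC content and transcript length the split was 6 higher and 6 lower. That fit called 29.4% of all genes, 2819 higher and 2586 lower. Without the correction, the count of channel genes was 4 without R1 or without R2 of KO3.20 (12.3% and 11.8% of all genes). It was 5 without R1 or R2 of KO1.4 or R1 of KO1.5 (11.6%, 11.6% and 13%). With each line summed to 1 replicate, KCND1 alone was called, of 39 channel genes tested, as were 13 of 19729 genes (0.0659%).

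Called in every SKmel147 KO line were 3 channel genes, KCND1 upwards and KCNG1 and KCNJ8 downwards, where 3.39% of all genes were called in every line (1.58% higher, 1.8% lower). Taken singly against controls, KO1.4 gave 5 called channel genes (8.77% of all genes), KO1.5 gave 5 (11.2%) and KO3.20 gave 10 (12.6%). Without R2 of KO1.4, or without either library of KO3.20, KCND1 alone remained so called. KCNJ8, the pore of an ATP-sensitive inward rectifier, measured 1.29 and 1.05 CPM in Par and 1.59 and 1.25 CPM in NT. In KO1.4 it measured 0.386 and 0.318 CPM, in KO1.5 0.243 and 0.150 CPM, and in KO3.20 0.652 and 0.478 CPM. All KO libraries lay below all controls, with KO1.5 the lowest, and the log2 fold change was -1.92 ± 0.25.

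KCNG1, a silent modifier, was in the set for its fall in 501mel, so its values in SKmel147 were not those that chose it. It measured 26.8 and 33.2 CPM in Par, 19.2 and 29.1 CPM in NT, and 12.2 to 17.8 CPM in the 6 KO libraries. The groups did not overlap, as was the case for 1 channel gene with KO libraries higher (KCND1) and 3 with KO libraries lower (KCNG1, KCNJ8 and KCNE4), and for 8.53% of all genes (4.18% higher, 4.35% lower). KCNG1 fell by 0.90 on the log2 scale (SE 0.12; edgeR's quasi-likelihood test, adjusted p = 0.000511). The adjusted p was 0.0264 with line as a random block in limma-voom and 0.127 in edgeR with line as the replicate.

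KCNE4, an auxiliary subunit that dampens several voltage-gated channels, was low in SKmel147, at 1.03 and 0.394 CPM in Par, 0.345 and 0.440 CPM in NT and 0.0911 to 0.318 CPM in KO libraries. The KO libraries lay below the controls, and 1 Par library stood above the rest. KCNE4 passed the filter on low counts through 3 control libraries and no KO library, so a lower level in KO lines was built into its being tested, and no p is given. The log2 fold change was -1.28 ± 0.40, and its call was lost under 17 of 23 alternatives, 8 of them the loss of a single library. The lost settings include NT as the only control, where the log2 fold change was -0.83.

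The other genes called in SKmel147 were KCNJ2 and KCNMA1 upwards and KCNQ3 and KCNK9 downwards, all with overlapping groups. KCNJ2, a strong inward rectifier, had 1.54 to 3.12 CPM in controls, 2.12 and 3.11 CPM in KO1.4, and 3.49 to 4.77 CPM in KO1.5 and KO3.20. KCNMA1, the pore of the large-conductance calcium-activated channel, had 150 to 182 CPM in controls and 181 to 216 CPM in KO libraries, a log2 fold change of 0.22 ± 0.06. The calls of KCNJ2 and KCNMA1 were each lost on leaving out any of 6 libraries. KCNQ3, a pore of the M current, was at 1.16 and 1.20 CPM in KO1.4, and without that line its log2 fold change was -0.14 in place of -0.76. KCNK9, a tandem-pore leak channel, was at 0.675 and 0.778 CPM in KO1.4, within the control range of 0.414 to 1.01 CPM, and at 0.137 to 0.263 CPM in the other KO lines.

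In 501mel, KCNG1 and KCNE4 were the genes whose fall chose the set. KCNG1 measured 12.1 and 9.71 CPM in Par and 21.1 and 20.1 CPM in NTC, against 0.707 and 0.764 CPM in KO1.8 and 0.0506 and 0.0976 CPM in KO5.2. KO5.2 held 3 counts of KCNG1 in all, which gives a ratio to controls of 0.00468 (95% counting interval 0.000963 to 0.0137). KCNE4 measured 21.9 and 20.3 CPM in Par, 31.0 and 31.7 CPM in NTC, 5.60 and 5.97 CPM in KO1.8 and 5.06 and 5.42 CPM in KO5.2. KO1.8 and KO5.2 lay at like levels of KCNE4, with log2 fold changes of -2.16 ± 0.09 and -2.28 ± 0.09, whereas KCNG1 was lower in KO5.2 than in KO1.8.

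Of 31 channel genes tested in 501mel, 23 were called in KO lines against controls, 10 higher and 13 lower, where the test called 51.3% of all genes, 24.7% higher and 26.5% lower. The median log2 fold change was -0.36 over the channel genes and -0.01 over all genes. All KO libraries lay above all controls for 5 channel genes and below them for 11. The groups did not overlap for 27% of all genes (13.3% higher, 13.7% lower). Of the 31 channel genes, 8 passed the filter through controls and 3 through KO libraries, which favoured their direction. KCNG1 and KCNE4, which lay below, chose the set by their fall. The counts by direction and the median were therefore partly built in. The channel genes called in KO1.8 and also in KO5.2, in the same direction, numbered 17 (7 higher, 10 lower), against 24% of all genes (12.3% higher, 11.7% lower). Taken singly against controls, KO1.8 gave 19 called channel genes (40.2% of all genes) and KO5.2 gave 24 (53.5%). With line as the replicate edgeR called none of 32 channel genes and none of 17114 genes. An unadjusted p under 0.05 was found there for 14 channel genes and for 2360 of all genes. limma-voom with line as a random block called 6 channel genes, all lower (KCNA3, KCNE4, KCNG1, KCNH5, KCNK5 and KCNMB4), where that fit called 5.8% of all genes, 446 higher and 496 lower. Of these 6, all but KCNE4 and KCNG1 passed the filter through control libraries, with fewer than 2 KO libraries at its level.

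KCNA3, a voltage-gated pore best known in T lymphocytes, measured 7.18 and 6.20 CPM in Par and 7.54 and 8.29 CPM in NTC. It measured 0.454 and 0.525 CPM in KO1.8 and had no count in either library of KO5.2. With a floor of 3 counts over the group, KO5.2 was at least 98.6-fold lower than controls, and in KO1.8 the log2 fold change was -3.88 ± 0.22. Of the leukocyte markers PTPRC was at 0 in all 501mel libraries, CD3E had 1 count and CD68 had 82 counts. CD68 was not called in KO lines against controls, and the part of these markers was not tested. KCNA3 had no count in any SKmel147 library.

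KCNK5, a leak channel, measured 0.797 and 1.15 CPM in Par, 3.45 and 3.47 CPM in NTC, 0.151 and 0.0955 CPM in KO1.8, and 0 and 0.0488 CPM in KO5.2. The single count in KO5.2 gives a ratio to controls of 0.0109 (95% counting interval 0.000275 to 0.0618). KCNK13, another leak channel, was at 0.689 to 1.15 CPM in controls and 0 to 0.303 CPM in KO libraries. Both leak channels tested in 501mel were called lower, and neither exceeded 3.47 CPM in any library. Both passed the filter through their controls, with no KO library at its level. A lower level in KO lines was thus built into their being tested.

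KCNJ2 measured 1.59 and 1.44 CPM in 501mel Par and 1.44 and 1.06 CPM in NTC. It measured 0.505 and 0.955 CPM in KO1.8 and 0 and 0.0488 CPM in KO5.2. The ratio of KO5.2, with 1 count, to controls was 0.0182 (95% counting interval 0.000455 to 0.103), and in KO1.8 the log2 fold change was -0.90 ± 0.33. KCNJ10, an inward rectifier of glia and kidney, moved the other way, from 2.47 to 5.07 CPM in controls to 5.05 to 8.93 CPM in KO libraries. The lowest KCNJ10 value among KO libraries fell within the range of Par, since NTC was lower than Par.

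Among the voltage-gated pores, KCNH5 measured 2.07 to 2.59 CPM in controls and 0.252 to 0.430 CPM in KO libraries. Its log2 fold changes in KO1.8 and KO5.2 were -2.73 ± 0.31 and -2.69 ± 0.31. KCND3, of the same family as KCND1, measured 0.689 to 2.12 CPM in controls and 0.0506 to 0.573 CPM in KO libraries. Both KCNH5 and KCND3 passed the filter through controls alone, so a lower level in KO lines was built into their being tested. KCNH1, the closest relative of KCNH5, rested on Par: it measured 1.08 and 0.976 CPM in Par, 3.74 and 2.65 CPM in NTC and 2.59 to 3.73 CPM in KO libraries, and against NTC alone its log2 fold change was -0.02.

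KCND1 in 501mel was outside the values that chose the set. It measured 1.59 and 1.15 CPM in Par, 0.921 and 1.35 CPM in NTC, 2.83 and 2.00 CPM in KO1.8, and 3.39 and 3.12 CPM in KO5.2. Every KO library lay above every control. KCND1 rose by a log2 fold change of 1.15 ± 0.20 (edgeR's quasi-likelihood test, adjusted p = 0.000212). The adjusted p was 0.159 in limma-voom with line as a random block and 0.265 in edgeR with line as the replicate.

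Auxiliary subunits and silent modifiers moved in both directions in 501mel, with 4 of 9 auxiliary subunits called higher and 3 lower. KCNIP2, a calcium-binding partner of KCND pores, measured 3.25 to 4.26 CPM in controls, 6.61 and 5.39 CPM in KO1.8, and 17.5 and 17.4 CPM in KO5.2. KCNIP3 of the same family measured 5.05 to 7.77 CPM in controls, 2.22 and 1.81 CPM in KO1.8, and 4.65 and 3.85 CPM in KO5.2. KCNMB4, a modulator of the KCNMA1 channel, measured 0.863 to 1.26 CPM in controls and 0.0488 to 0.286 CPM in KO libraries, while KCNMA1 had no count in 501mel. KCNMB4 passed the filter through its controls, with no KO library at its level, so its direction was built in. KCNAB2, which binds KCNA pores, was the most counted channel gene and measured 258 to 320 CPM in controls and 337 to 406 CPM in KO libraries, a log2 fold change of 0.38 ± 0.05. KCNS3, a silent modifier, measured 6.94 to 7.87 CPM in controls and 10.0 to 14.2 CPM in KO libraries, which is opposite in direction to KCNG1. KCNG3, a silent modifier like KCNG1, measured 1.94 to 3.52 CPM in controls and 0.860 to 2.17 CPM in KO libraries, with overlapping groups. The antisense row of KCNIP2 was at 0.137 CPM on average, and the strand setting of the counting is not given in the sources used here.

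**Figure D2:**
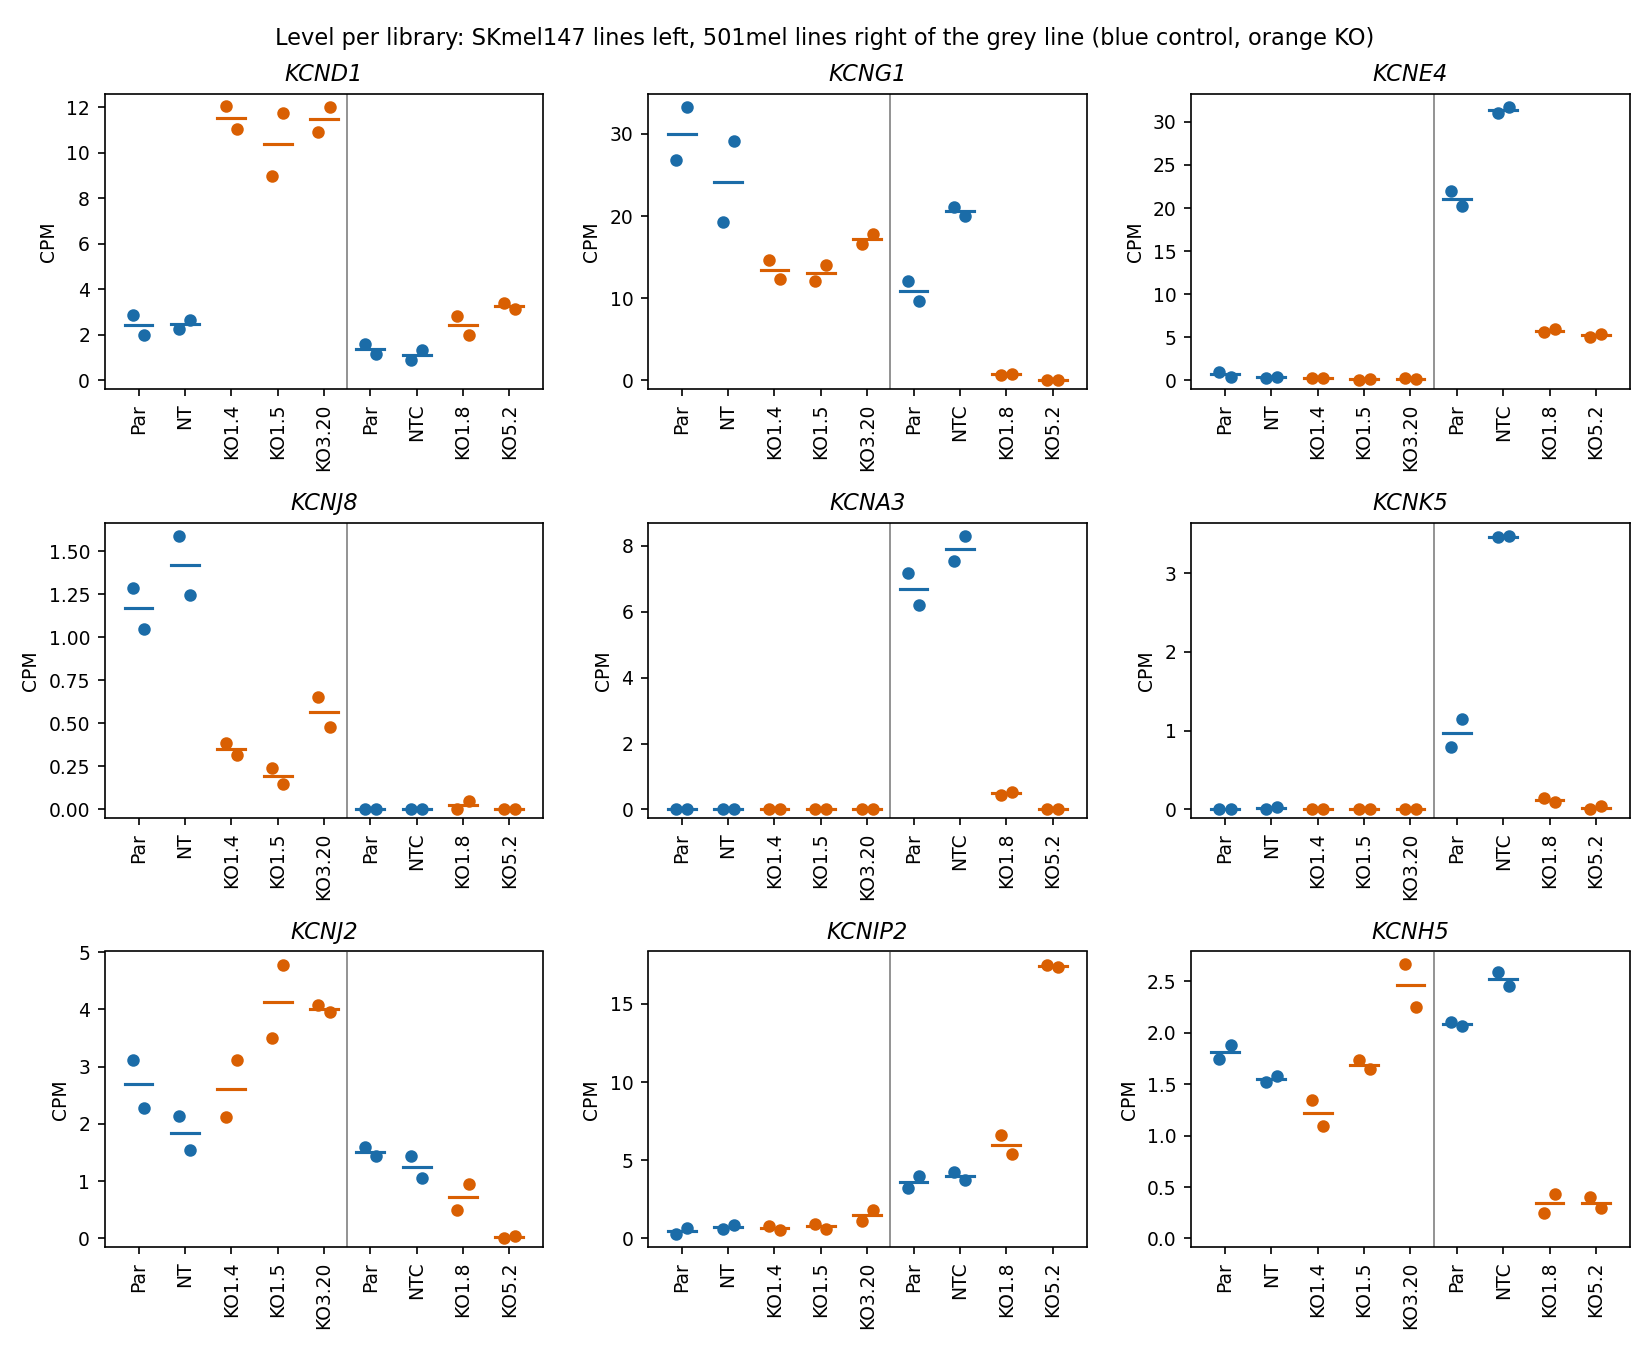
CPM of 9 potassium channel genes in every library (dots), with the line mean as a bar; blue lines are controls, orange lines are ARID2 KO, and the grey line separates SKmel147 from 501mel. KCND1 lies between 8.99 and 12.1 CPM in SKmel147 KO libraries and at 2.86 CPM or less in their controls; KCNG1, KCNA3 and KCNK5 lie near 0 in 501mel KO libraries.

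The lines without a KO differed as well, in comparisons that played no part in choosing the set. In SKmel147, NT differed from Par in 6 channel genes, 4 higher and 2 lower, where 9.27% of all genes were called (3.82% higher, 5.45% lower). KCNAB2 was at 3.35 and 4.07 CPM in Par and 8.77 and 12.3 CPM in NT, a rise of 1.51 ± 0.23 (log2; edgeR's quasi-likelihood test, adjusted p = 0.00306). KCNH1 was at 4.18 and 5.70 CPM in Par and 11.7 and 11.1 CPM in NT, a rise of 1.22 ± 0.19 (adjusted p = 0.00306 by the same edgeR test). KCNQ5 rose by 0.73 ± 0.15 and KCNC4 fell by 1.05 on the log2 scale, with adjusted p of 0.0123 and 0.0172 in edgeR. The calls of KCNQ5 and KCNC4 were lost without R1 of NT, where NT rests on a single library and fewer of all genes were called.

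In 501mel, NTC differed from Par in 10 channel genes, 8 higher and 2 lower, where 15.7% of all genes were called (6.77% higher, 8.93% lower). KCNG1, KCNE4, KCNK5 and KCNH1 rose by 0.91 ± 0.12, 0.57 ± 0.08, 1.82 ± 0.28 and 1.61 ± 0.27 on the log2 scale, with edgeR adjusted p of 0.000126, 0.000327, 0.000596 and 0.000994. Of the 23 genes called in KO lines against controls, 8 were also called in NTC against Par. For 6 of them (KCND3, KCNE4, KCNG1, KCNIP3, KCNJ10 and KCNK5) the sign was opposite to that of the KO lines, and for KCNH1 and KCNU1 it was the same. Both comparisons use the same control libraries. DESeq2 called 5 channel genes and 9.8% of all genes in NTC against Par. The edgeR count was 5 without R1 of NTC (7.9% of all genes) and 6 without R2 (7.83%).

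The KO lines of a cell line were also compared with each other. In 501mel, KO5.2 differed from KO1.8 in 17 channel genes, 9 higher and 8 lower, where 41.3% of all genes were called (20.6% higher, 20.7% lower). KCNIP2 and KCNAB1 were higher in KO5.2 by 1.56 ± 0.13 and 1.21 ± 0.19 (log2), and KCNU1 was lower by a log2 fold change of -1.03 ± 0.11, with edgeR adjusted p of 4.91e-07, 0.000164 and 5.29e-06. KCNA3 had 20 counts in KO1.8 and 0 in KO5.2, at least 6.59-fold lower (edgeR adjusted p = 0.000374). The count was 10 without R2 of KO1.8, and 10 with DESeq2. KCNU1, a sperm potassium channel gene on chromosome 8, fell while the median log2 fold change of that chromosome was 0.29. KCNK13 and KCNH5 lie on chromosome 14, whose median in KO5.2 against KO1.8 was -0.40, and KCND1 lies on chromosome X with a median of -0.26. For 501mel KO lines against controls the medians were -0.23 on chromosome 14 and 0.13 on chromosome X. The part of these shifts in the calls was not tested.

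In SKmel147 the KO lines differed in few channel genes. KO1.5 differed from KO1.4 in 2 (2.17% of all genes were called), KO3.20 from KO1.4 in 3 (1.9%), and KO3.20 from KO1.5 in 2 (5.25%). KCNQ3 was higher than in KO1.4 by 2.00 ± 0.29 in KO1.5 and by 1.71 ± 0.29 in KO3.20 (edgeR adjusted p of 0.00392 and 0.0107). KCNAB2 was higher by 1.09 ± 0.23 and 1.34 ± 0.23 in the same comparisons (edgeR adjusted p of 0.0341 and 0.0115). KCNH1 was higher in KO3.20 than in KO1.4 by 0.84 ± 0.19 (edgeR adjusted p = 0.0469). KCNH8, a voltage-gated pore, was higher in KO3.20 than in KO1.5 by 2.29 ± 0.34, and KCNK2, a stretch-sensitive leak channel, was lower by a log2 fold change of -2.12 ± 0.56 (edgeR adjusted p of 0.00291 and 0.0492). Without either library of KO1.4 no channel gene was called between KO1.4 and the other lines, and without R1 of KO3.20 none was called in KO3.20 against KO1.4. In KO3.20 against KO1.5 KCNH8 alone was called on leaving out any single KO library, and 4 channel genes were called without either library of Par.

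**Figure D3:**
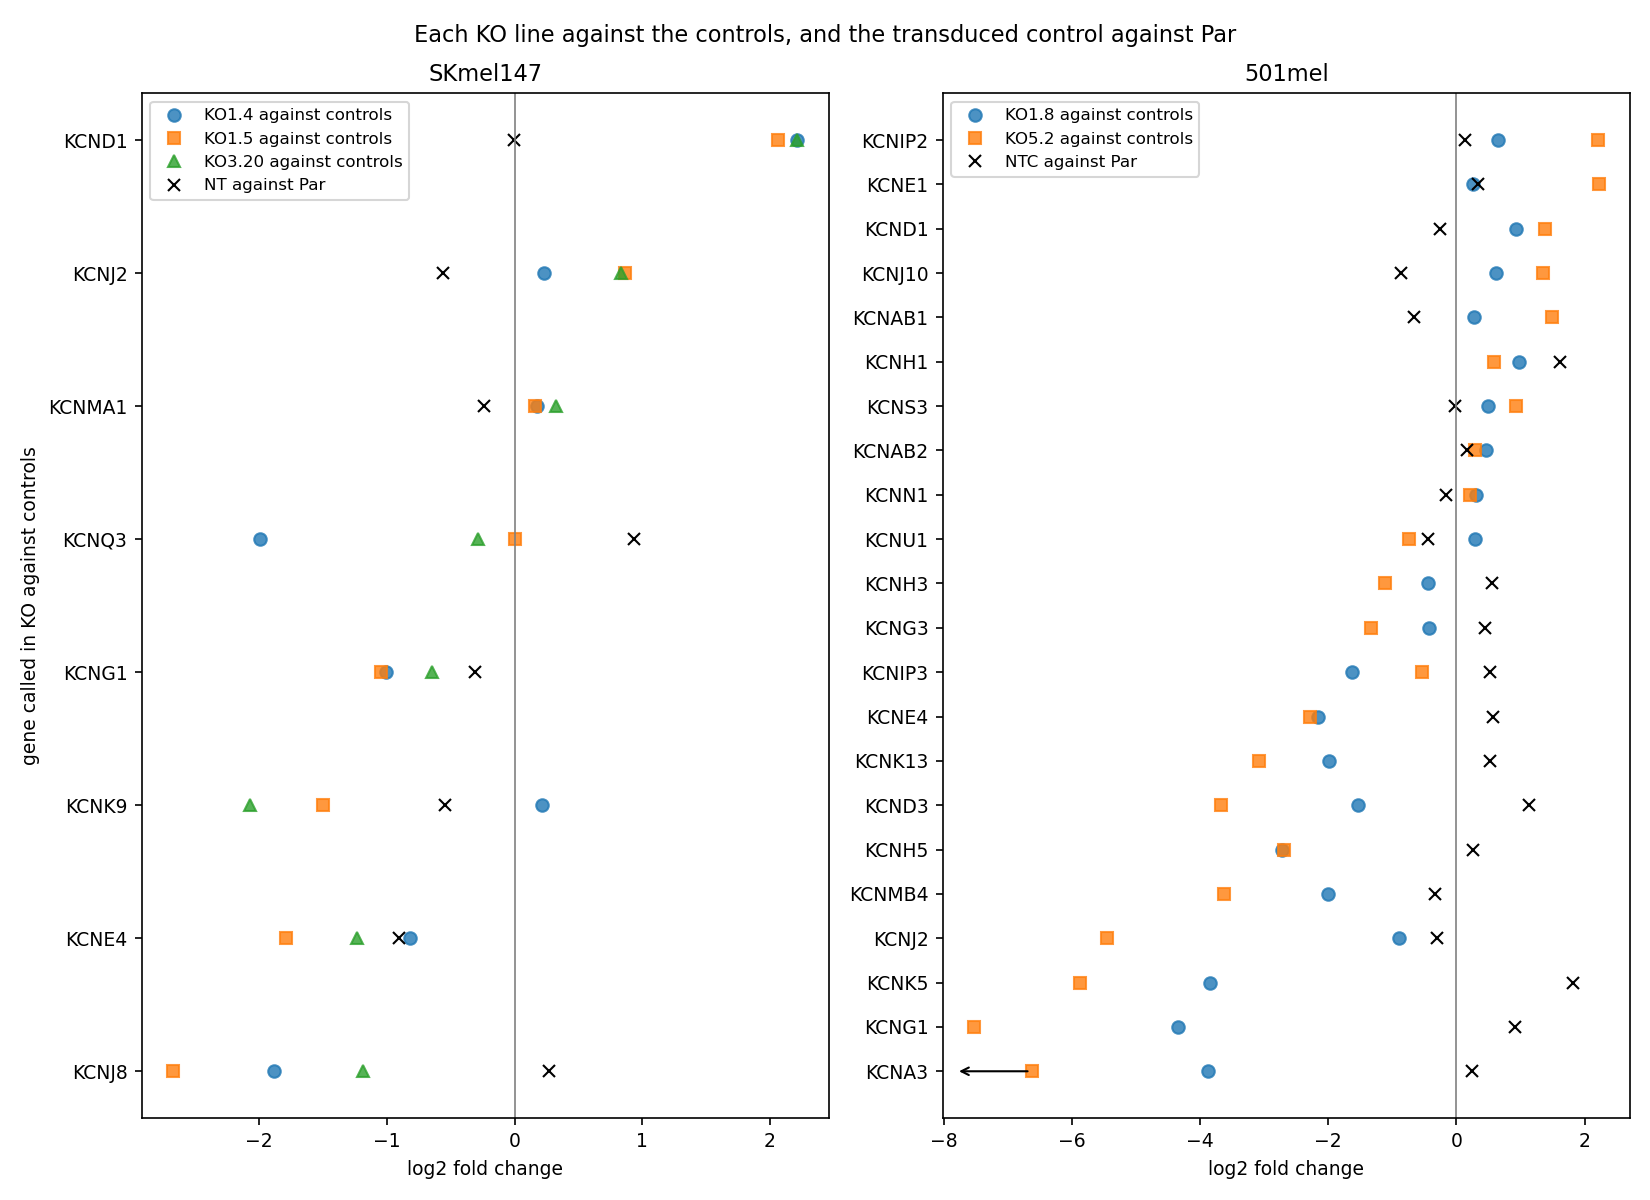
log2 fold change of each ARID2 KO line against the controls of its cell line (coloured symbols) and of the transduced control against Par (crosses), for the 8 genes called in SKmel147 and 22 of the 23 called in 501mel. KCND1 lies between 2.06 and 2.22 in the 3 SKmel147 KO lines; the arrow marks KCNA3 in KO5.2, which had 0 counts and is drawn at its bound of at least 98.6-fold lower.

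The difference between KO lines and controls was compared between the cell lines in the joint fit, where 12 of 43 channel genes were called and 21.3% of all genes were. After KCNG1, whose fall in 501mel was among the values that chose the set, the lowest adjusted p were those of KCNH5, KCNJ2 and KCNMB4. These had log2 fold changes of 0.03, 0.64 and 0.08 in SKmel147, of which that of KCNJ2 alone was called, and of -2.71, -3.17 and -2.81 in 501mel, all called. KCNH5 and KCNMB4 passed the 501mel filter through controls alone, so a fall was built into their being tested there. With line as the replicate edgeR called none of 52 channel genes and 3 of 21374 genes in this comparison. There 10 channel genes and 2208 of all genes had an unadjusted p under 0.05. limma-voom with line as a random block called 4 channel genes (KCNA3, KCNG1, KCNH5 and KCNJ2) and 2.15% of all genes. KCNA3 had no count in any SKmel147 library, so its difference rests on 501mel alone. In the separate fits 19 channel genes were tested in both cell lines.

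Before any KO, the cell lines held different channel genes. Of 43 channel genes tested in the control lines, 38 were called, 20 higher in SKmel147 and 18 higher in 501mel, where 80.7% of all genes were called (43.1% higher and 37.6% lower in SKmel147). Many of the 43 passed the joint filter of 0.452 CPM through 1 cell line alone. KCNMA1, KCNN4, KCNQ3 and KCNT2 did so through SKmel147, and KCNA3 and KCNJ10 through 501mel. A difference was thus built into their being tested, and the counts by direction were partly built in. The comparison is of 1 cell line with another, and the cell line cannot be told apart from the preparation of its libraries. KCNMA1 measured 150 to 182 CPM in SKmel147 controls and had no count in any 501mel library, so that it was at least 4061-fold higher in SKmel147. It made up 40.7% to 47.3% of all channel gene counts in SKmel147 controls. KCNN4, the intermediate-conductance calcium-activated pore, had 33.2 to 69.6 CPM in SKmel147 controls and 2 counts in those of 501mel, a ratio of 1894 (95% counting interval 524 to 15647).

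In 501mel the auxiliary subunit KCNAB2 made up 54.4% to 57.0% of channel gene counts in controls, at 258 to 320 CPM against 3.35 to 12.3 CPM in SKmel147 controls (log2 fold change of SKmel147 against 501mel -5.53 ± 0.12, edgeR adjusted p = 1e-16). KCNN2, a small-conductance calcium-activated pore, measured 27.1 to 31.5 CPM in 501mel controls and 1.09 to 1.67 CPM in SKmel147 controls (-4.38 ± 0.13, edgeR adjusted p = 6.43e-15). KCNE4 measured 20.3 to 31.7 CPM and 0.345 to 1.03 CPM (-5.54 ± 0.19). KCNA3 and KCNJ10 had no count in SKmel147 controls and were at least 279-fold and 137-fold lower there. KCNQ3 and KCNT2, a sodium-activated pore, had no count in any 501mel library and were at least 122-fold and 96.6-fold higher in SKmel147 controls.

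Levels of different genes were compared per kb of transcript. In SKmel147 controls KCNN4 stood first at 23.6 ± 4.68 CPM per kb (mean and SD between the 2 control lines), followed by KCNS3 at 13.8 ± 3.03 and KCNMA1 at 13.8 ± 1.64, which did not differ beyond their spread, and KCNG1 at 7.28 ± 1.11. In 501mel controls KCNAB2 stood first at 67.5 ± 5.54 CPM per kb. KCNE4, KCNQ5 and KCNN2 followed at 7.97 ± 2.20, 7.80 ± 0.537 and 7.07 ± 0.649 CPM per kb and did not differ beyond their spread, and KCNG1 stood at 4.23 ± 1.84. KCNQ5, the most counted voltage-gated pore, measured 17.0 to 32.0 CPM in SKmel147 controls and 49.1 to 56.4 CPM in those of 501mel. KCNQ5 was called in KO lines against controls in neither cell line. KCNC4 (2.62 to 7.33 CPM and 25.4 to 32.2 CPM) and KCNJ14 (6.87 to 9.20 CPM and 1.08 to 2.82 CPM) were also not called there.

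**Figure D4:**
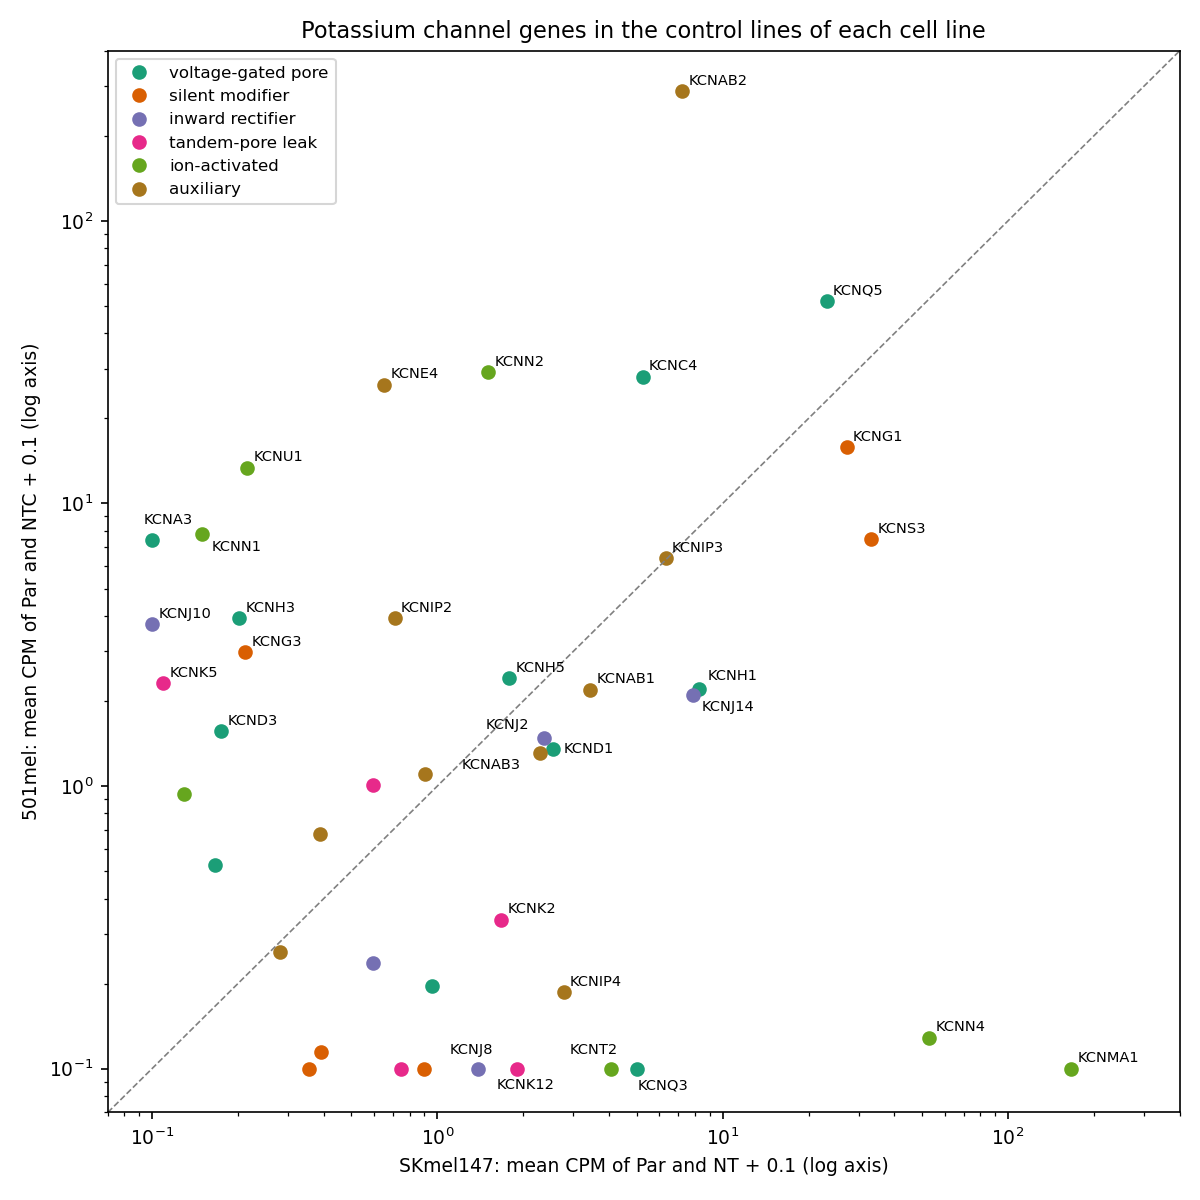
Mean CPM of the control lines, with 0.1 added, in SKmel147 (Par and NT, x axis, log scale) and 501mel (Par and NTC, y axis, log scale) for 44 tested potassium channel genes, coloured by role. The dashed line marks equal levels; KCNMA1 and KCNN4 lie far to its right and KCNAB2 far above it.

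Genes that work with these channels but lie outside the symbol rule were counted beside them, from a list of 39 that holds subunits of the ATP-sensitive channel, KCND partners, HCN channels, sodium-potassium pumps and chloride cotransporters. In SKmel147, 9 of 25 tested were called, 4 higher and 5 lower (17.7% of all genes), and none was called in every KO line. ABCC9, the regulatory subunit that assembles with KCNJ8, measured 17.9 and 9.46 CPM in Par, 18.4 and 12.9 CPM in NT, 6.27 and 5.94 CPM in KO1.4, 15.5 and 12.3 CPM in KO1.5, and 2.89 and 3.72 CPM in KO3.20. ABCC9 and KCNJ8 both lie on chromosome 12, and ABCC9 in KO1.5 stayed within the control range where KCNJ8 was lowest. DPP10, a partner of KCND pores, measured 0.789 to 1.54 CPM in controls, had no count in KO1.4 or KO1.5, and measured 0.745 and 0.955 CPM in KO3.20.

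In 501mel, 16 of 24 tested partner genes were called, 10 higher and 6 lower (51.3% of all genes). HCN2, a pacemaker channel, measured 21.4 to 31.4 CPM in 501mel controls and 36.5 to 62.3 CPM in KO libraries. ATP1B1, a beta subunit of sodium-potassium pumps, measured 28.1 to 32.0 CPM in 501mel controls and 12.4 to 21.7 CPM in KO libraries.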

How the data were processed

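PolyA RNA of 18 libraries was sequenced. STAR 2.6.0, featureCounts and the GRCh37 (hg19) build are named in the submitters' processing notes, and the authors deposited raw counts per gene symbol in 1 table for each cell line. Members and lists were chosen with earlier results of these data known. Each cell line was fitted alone with 1 coefficient per line in edgeR (4.0.16, R 4.3.3): TMM scaling, filterByExpr by line, quasi-likelihood test, Benjamini-Hochberg adjustment over all tested genes, and a call at an adjusted p under 0.05. Comparisons across cell lines came from 1 joint fit. CPM used the joint TMM factors; levels per kb used the longest GENCODE 29 transcript. Alternatives used DESeq2 (1.42.0), limma-voom (3.58.1), line sums, other scaling, no filter, a 2-fold limit and left-out libraries or lines. Floors are 3 counts over a group; intervals cover counting error only. In simulated data the SKmel147 fit of 18361 genes recovered 76% of 2-fold and 97% of 4-fold changes with 6 false calls, and the 501mel fit of 16230 genes recovered 90% and 95% with 10. In the data themselves, the lines without a KO differed in 9.27% of all genes in SKmel147 and in 15.7% in 501mel. The simulated false calls are therefore no measure of differences between lines. Named genes were ARID2, the 3 genes that chose the set, genes called in every KO line or in both cell lines, the most counted 3 of a role at 1 CPM or more, and up to 4 of each other comparison and of the partner list by smallest adjusted p. Values of 2 genes that this rule names are not reported here; counts over the lists include them.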

Additional observations from a re-analysis of the deposited data

Results flagged for a closer look

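For 8 channel genes described here the difference between KO lines and controls itself differed between SKmel147 and 501mel in a test of that difference (interaction contrast of the joint edgeR quasi-likelihood fit, adjusted over all genes). In all, 12 of 43 channel genes were called in that test, where 21.3% of all genes were. KCND1 and KCNG1, 2 of the 12, helped to choose the set and are left out here, and KCNU1 was not tested in SKmel147 alone. The values are the log2 fold change in SKmel147 minus that in 501mel.

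KCNH5, KCNJ2, KCNMB4 and KCNIP3 differed by 2.75, 3.86, 2.91 and 1.54 (edgeR adjusted p of 2.08e-06, 2.04e-05, 0.000265 and 0.000474). KCNJ2 had opposite signs, 0.64 in SKmel147 and -3.17 in 501mel, and KCNIP3 had 0.45 (not called) and -1.08. KCNH5 and KCNMB4 had 0.03 and 0.08 in SKmel147, neither called, and -2.71 and -2.81 in 501mel. In the 501mel fit both passed the filter through their controls, with no KO library at its level. A fall was thus built into their being tested in 501mel. KCNC4, a voltage-gated pore, differed by 0.57 (edgeR adjusted p = 0.0169), with 0.46 and -0.10, neither called in its cell line.

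KCNS3, KCNH1 and KCNAB1 differed by -0.67, -1.05 and -0.93 (edgeR adjusted p of 0.00028, 0.00117 and 0.00695), being called higher in 501mel and not called in SKmel147. The KCNH1 value rests on Par: against NTC alone its log2 fold change in 501mel was -0.02. In both cell lines KCNH1 was also called higher in the transduced control than in Par. With limma-voom and line as a random block KCNH5 and KCNJ2 kept an adjusted p under 0.05 (0.00475 and 0.0420), and the other 6 had 0.0559 to 0.557. With line as the replicate the 8 had edgeR adjusted p of 0.116 to 0.762.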

How the results depend on the processing

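Counts below are channel genes called, KO lines against controls unless said otherwise; percentages are the share of all genes called in the same fit. With line as the replicate they were 1 in SKmel147, 0 in 501mel and 0 for the difference between cell lines (0.0659%, 0% and 0.014%), and 0 partner genes in each cell line. limma-voom with line as a random block gave 3, 6 and 4 (3.25%, 5.8% and 2.15%), with 1 and 6 partner genes; it could not be fitted between single lines. With a 2-fold limit they were 2 and 11 (1.15% and 3.32%), with 1 and 1 partner genes, and 4 for the difference (2.18%); 2, 2 and 1 for KO1.4, KO1.5 and KO3.20 (0.92%, 1.03% and 0.91%); 6 and 13 for KO1.8 and KO5.2 (2.75% and 4.71%); 1 and 5 for every KO line of SKmel147 and 501mel; 4 for KO5.2 against KO1.8 (2.82%); and 0 for NT or NTC against Par (0.436% and 0.906%) and between SKmel147 KO lines (0.24% to 0.561%). DESeq2 gave 10 for KO5.2 against KO1.8 (30.4%) and 5 for NTC against Par (9.8%). GC and length correction gave 9 (4 higher), 11 (6 higher), 4 (2 higher) and 5 for KO1.4, KO1.5, KO1.5 against KO1.4 and KO3.20 against KO1.5 (18.2%, 22.6%, 6.5% and 12.6%), 3 higher and 1 lower for KO3.20 against KO1.4 (5.2%), and 2 higher and 2 lower in every SKmel147 line. Without the filter KO1.5 had 8 (7.63%), and KO3.20 against KO1.4 had 5 (1.9%). Leaving out KO1.4 or KO3.20 gave 5 (12.8% and 11.6%), and 5 partner genes without KO3.20 or with NT as the only control.

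Leaving out 1 library gave 4 to 10 in SKmel147 (11.6% to 17.4%) and 20 to 22 in 501mel (43.7% to 47%), 2 to 7 for NT against Par, 5 to 10 for NTC against Par, 0 to 3 for KO1.5 against KO1.4, 0 to 3 for KO3.20 against KO1.4, 1 to 4 for KO3.20 against KO1.5, 10 to 18 for KO5.2 against KO1.8, 2 to 5 for KO1.4, 2 to 7 for KO1.5, 1 to 10 for KO3.20, and 1 to 3 for every SKmel147 line. A lone library is assumed to vary like the other lines. Against NTC alone KCNH1 and KCNU1 turned to -0.0185 and 0.00174, and KCNU1 to 0.29 without KO5.2. R1 minus R2 correlated between lines at -0.267 to 0.324 in SKmel147 and -0.0251 to 0.138 in 501mel, so the numbers are no pairing; a replicate block gave 7 and 23. Alternatives for single genes, run for called genes, kept the call in 3093 cases, lost it in 523 and turned it in 3; causes were not tested. Genes with few counts are limited by depth.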

Other observations

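The tables hold 17 further rows whose symbol starts with KCN but which the symbol rule does not take, most of them antisense, intronic or pseudogene rows. Without a stated strand setting, reads from such a row and from the gene it overlaps cannot be told apart. KCNQ1OT1, a long noncoding RNA of the imprinted KCNQ1 region, was the most counted of them at 12.8 CPM on average, and its log2 fold change in KO lines against controls was 0.59 ± 0.14 in 501mel (called) and 0.23 ± 0.10 in SKmel147 (not called). The lines of a cell line differed in KCNQ1OT1. In 501mel the log2 fold change was 1.06 ± 0.16 in KO5.2 (called) and 0.12 ± 0.18 in KO1.8 (not called), and in SKmel147 it was 0.76 ± 0.13 in KO3.20 (called), 0.17 ± 0.13 in KO1.4 and -0.25 ± 0.13 in KO1.5 (neither called). KCNH1-IT1, an intronic transcript of KCNH1, had a log2 fold change of 1.45 ± 0.33 in 501mel (called) and 0.28 ± 0.35 in SKmel147 (not called).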
